A study of Homo sapiens with 12 samples.

Results

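The genes described here encode ephrins and Eph receptors, semaphorins with their plexin and neuropilin receptors, and the Slit, Robo and UNC5 proteins. They were chosen by symbol alone, as EPHA, EPHB, EFNA, EFNB, SEMA, PLXNA to PLXND, NRP, ROBO, SLIT or UNC5 with the numbers and letters that follow, a rule that uses no expression value. The rule found 48 of 13410 genes (119 of 44112 transcripts) in the first of 2 deposited tables, and 35 of 11504 genes (73 of 29204 transcripts) in the second. All 35 were among the 48, which comprise 24 ligands and 22 receptors. The other 2 matched by spelling: UNC50 encodes a Golgi membrane protein that is no UNC5 receptor, and UNC5CL encodes a signalling protein related to UNC5 receptors by part of its sequence. Family members that neither table lists, such as PLXNC1, SLIT1, SLIT2 and ROBO2, were not analysed here.

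These families were first studied as cues that steer growing axons, and they also act in epithelia. Ephrins are held at the cell surface, the A class by a lipid anchor and the B class by a transmembrane segment, and they bind Eph receptor tyrosine kinases on neighbouring cells, with signals passing in both directions and often leading to repulsion and to the sorting of cells at tissue borders. Class 3 semaphorins are secreted and mostly signal through a neuropilin that binds the cue and a plexin that signals inside the cell, class 4 to 6 semaphorins cross the membrane and bind plexins directly, and SEMA7A is lipid-anchored and also binds integrins. Slits are secreted ligands of Robo receptors, and UNC5 proteins are receptors of netrins. In mammary epithelium, Eph and plexin signalling is known for roles in cell contact, branching and migration.

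RNA was sequenced from MCF-12A, an immortalised but non-tumorigenic epithelial cell line of the human breast. The cells were given TGFbeta1, a secreted cytokine that drives many epithelial cells towards a mesenchymal state, or vehicle as the control, and the labels name no engineered allele. There were 6 libraries of each kind, deposited as 2 tables: the first set has control and TGFbeta1 replicates 1 to 3, the second has replicates 4 to 6. The comparison asks which transcripts respond to TGFbeta1. Dose and time are not given in the labels, and neither is whether replicates were separate cultures, so the p-values below measure only the spread between these libraries, which may be technical.

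Values are FPKM, a fragment abundance corrected for the length of the transcript and the size of the library, added up here over the protein-coding transcripts of a gene. A library's FPKM added up to 291801.6 to 318269.5 (first set) or 338968.0 to 358432.6 (second set), and with no counts in use the depth is unknown. The unit of the first table is inferred from its values. All 7 genes of a TGFbeta response check (SMAD7, PMEPA1, SKIL, ITGB6, TGFBI, FN1 and LTBP2) were called higher with TGFbeta1 in the first set, with a median log2 change of 2.23. The 7 together summed to 169 to 217 FPKM in the controls there and to 1009 to 1145 FPKM with TGFbeta1. In the second set limma called none of the 7, and their median log2 change was -0.35. Of them 4 had an unadjusted p under 0.05, beside 11.2% of all genes tested in that set. Their sum there was 637 to 682 FPKM in the controls and 298 to 413 FPKM in the labelled libraries, without overlap. A direction in that set is therefore that of libraries labelled TGFbeta1. The 9 breast epithelial markers were listed in both sets. In the first, 3 of them were called lower (EPCAM, KRT5 and KRT18) and 1 higher (LAMB3), and their sum was 2594 to 3322 FPKM in the controls and 2283 to 2588 FPKM with TGFbeta1. In the second, limma called none (2 had an unadjusted p under 0.05), and the sums overlapped. Of 8 endothelial markers, 2 were listed in the first set, with a summed level of at most 0.207 FPKM in any library, and none in the second. Of 10 leukocyte markers, 4 were listed in the first set, 3 in the second, and PTPRC in neither. The 3 tested in the first set were all called, CSF1R higher and CD14 and CD68 lower, and the summed level of the listed ones was 26.5 to 27.3 FPKM in the controls and 19.2 to 22.5 FPKM with TGFbeta1. Of 8 neural markers, 2 were listed in each set, and MBP was called lower in the first. Of 8 fibroblast markers, only DCN and COL1A1 were listed in the first set, and both were called higher. Their sum was 1.56 to 1.84 FPKM in the controls and 13.7 to 16.9 FPKM with TGFbeta1. In the second set DCN, COL1A1 and PDGFRA were listed and their sum went the other way. It went from 28.6 to 32.6 FPKM in the controls to 12.04 to 15.7 FPKM in the libraries labelled TGFbeta1. Of these 3, DCN alone was tested there, and limma called it lower (log2 change -1.14). The part of these marker levels in the results below was not tested, and in such bulk RNA fewer cells of a type and less RNA per cell cannot be told apart.

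In the controls of the first set the gene with the highest level was EPHA2, a receptor abundant in many epithelia, with 58.0, 44.1 and 73.5 FPKM. PLXNB2, a receptor of class 4 semaphorins, followed at 43.8 to 44.5 FPKM, a range that lies at the low end of that of EPHA2, and then came EPHB4 at 33.7 to 35.0 FPKM. EFNB2, a ligand of EPHB4, stood at 28.6 to 33.1 FPKM and overlapped PLXNA1 at 20.6 to 29.9 FPKM. At the other end, 16 of the 48 genes had a mean below 1 FPKM over the 6 libraries and were not tested: EFNA2, EFNB3, EPHA4, EPHA6, EPHB6, PLXNA4, PLXND1, ROBO4, SEMA5A, SEMA5B, SEMA6A, SEMA6B, SEMA6C, SLIT3, UNC5CL and UNC5D. In the second set the 5 highest control means were those of EPHA2 (40.8 FPKM), EFNB2 (33.4 FPKM), UNC50 (30.5 FPKM), SEMA3C (26.8 FPKM) and EFNB1 (25.8 FPKM). There the lowest control value of EPHA2, 39.3 FPKM, was above the highest of EFNB2, 36.2 FPKM, while the ranges of EFNB2 and UNC50 overlapped. The ligands together summed to 135 to 138 FPKM in the controls of the first set and to 204 to 217 FPKM with TGFbeta1, and the receptors to 231 to 246 FPKM and 219 to 233 FPKM.

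**Figure D1:**
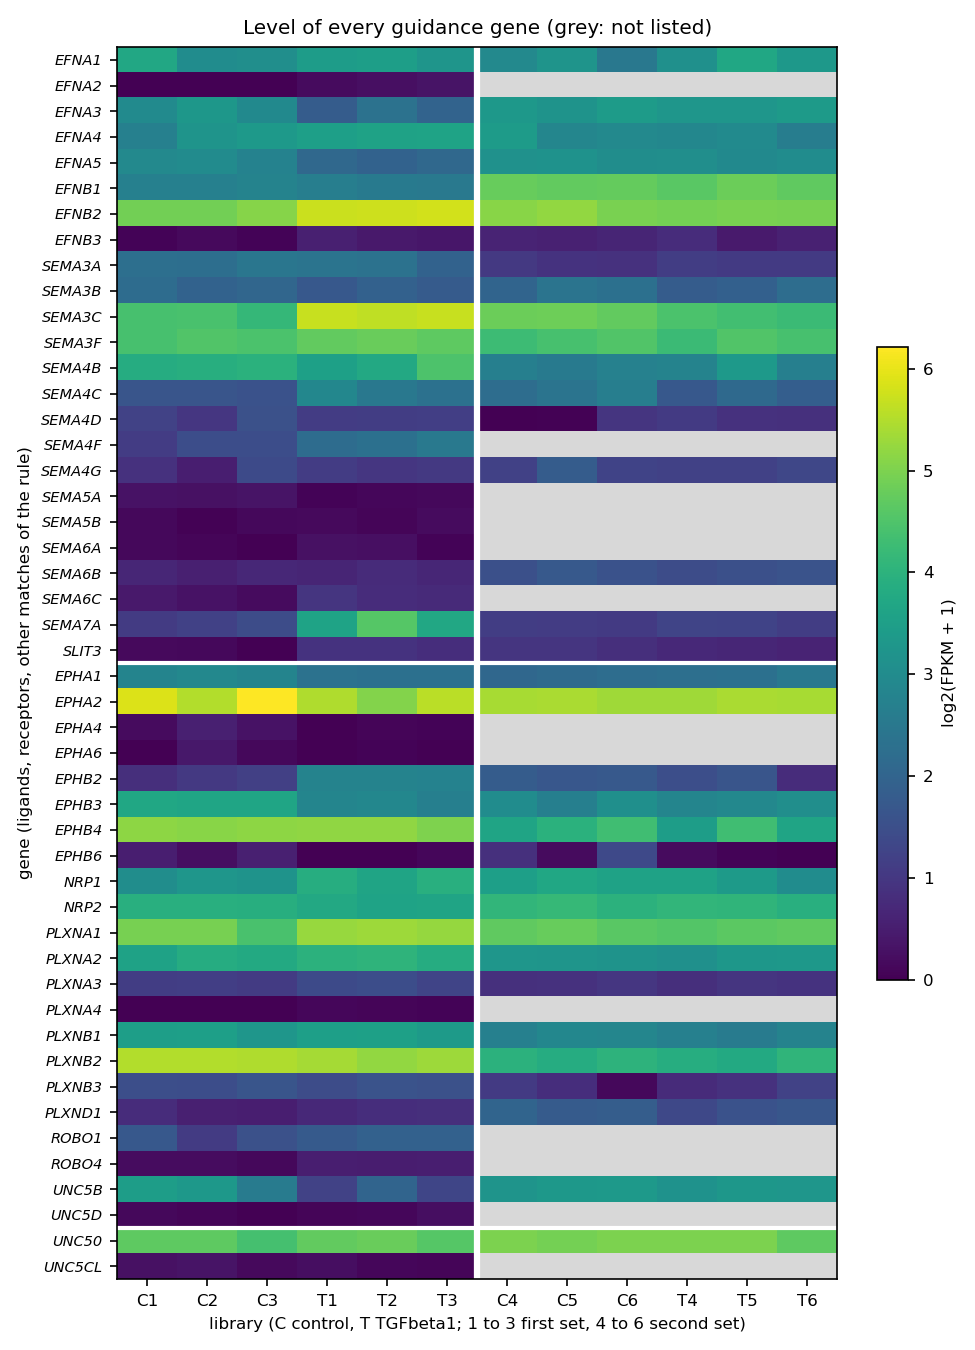
Heat map of the level of each guidance gene (1 gene per line, ligands at the top, then receptors, then the other 2 matches) in each library (C control, T TGFbeta1; first set at left, second set at right), coloured by log2(FPKM + 1), with grey for genes that a table does not list. The brightest cell is EPHA2 in C3 at 73.5 FPKM, and EFNB2 and SEMA3C are brighter in T1 to T3 than in C1 to C3.

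With TGFbeta1 in the first set, 13 of the 32 tested guidance genes changed, 8 higher and 5 lower, at an adjusted p under 0.05 (limma on log2(FPKM + 1), Benjamini-Hochberg over all 10454 genes tested). That is 40.6% of the tested guidance genes, beside 20.9% of all genes tested (9% higher and 11.9% lower); the difference between these shares was not tested. Higher were the semaphorins SEMA7A, SEMA3C, SEMA4F, SEMA4C and SEMA3F, the ephrin EFNB2 and the receptors EPHB2 and NRP1. Lower were the ephrins EFNA3 and EFNA5 and the receptors UNC5B, EPHB3 and EPHA1. The median log2 change was 0.086 over the 32 genes and -0.055 over all genes tested. In 22 of the 32 the control and TGFbeta1 libraries did not overlap, beside 43.3% of all genes tested.

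**Figure D2:**
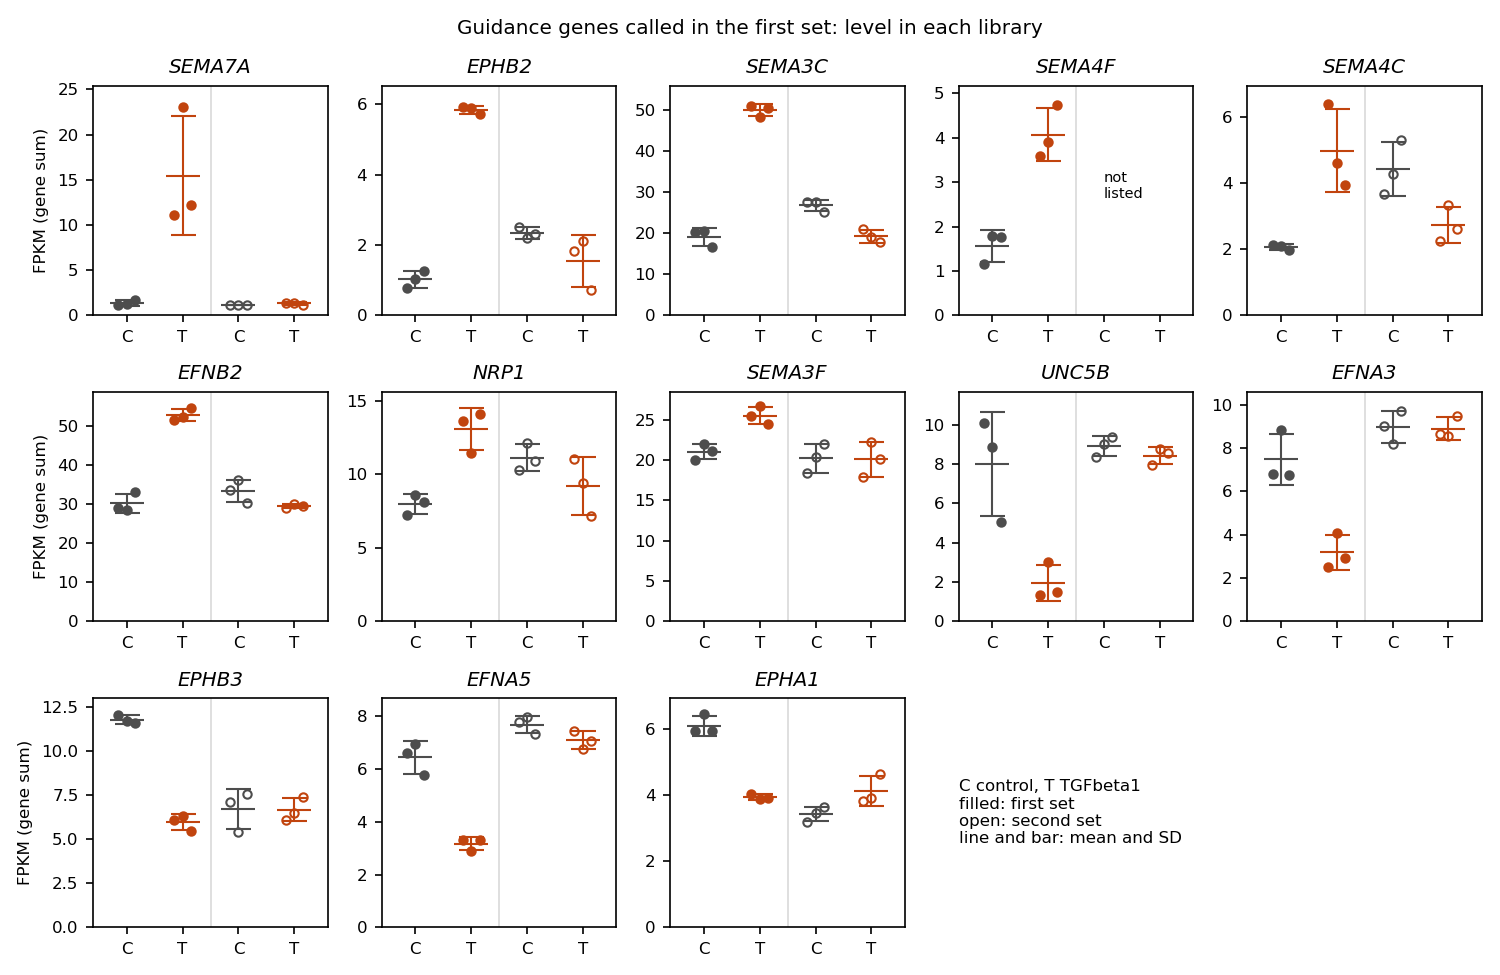
FPKM of the 13 guidance genes called in the first set, 1 panel each, with C for control and T for TGFbeta1, filled points for the first set, open points for the second, and bars for the mean and SD of 3 libraries. In each panel the filled T points lie wholly above or below the filled C points, from SEMA7A (1.12 to 1.71 against 11.1 to 23.1 FPKM) to SEMA3F (20.1 to 21.95 against 24.5 to 26.7 FPKM).

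The sequences just upstream of 5 of these genes show what their promoters look like: the 4 higher genes and the 1 lower gene (EPHB3) with the smallest adjusted p. Each is the 250 bases before a RefSeq start site (GRCh38.p14), 5′ to 3′ on the gene's strand. Capitals mark the motifs that were searched, each read on both strands. The SMAD-binding element was searched as CAGAC, which reads GTCTG on the other strand. The E-box of the kind that SNAI and ZEB factors bind was searched as CACCTG, which reads CAGGTG on the other strand. The CG-rich SMAD element was GGCGCC, the AP-1 element was TGANTCA, and the TATA box was TATAAA, which reads TTTATA on the other strand. No capital run here belongs to more than 1 motif. SEMA7A lies at chr15:74433959-74434208 on the minus strand, SEMA3C at chr7:80919052-80919301 on the minus strand, EPHB2 at chr1:22710589-22710838 on the plus strand, EFNB2 at chr13:106535663-106535912 on the minus strand and EPHB3 at chr3:184561535-184561784 on the plus strand.
SEMA7A: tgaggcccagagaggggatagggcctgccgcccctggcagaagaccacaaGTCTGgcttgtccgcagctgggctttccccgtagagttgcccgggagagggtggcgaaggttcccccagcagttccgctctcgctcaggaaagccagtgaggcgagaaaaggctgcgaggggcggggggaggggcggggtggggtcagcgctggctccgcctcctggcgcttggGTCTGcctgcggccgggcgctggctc
SEMA3C: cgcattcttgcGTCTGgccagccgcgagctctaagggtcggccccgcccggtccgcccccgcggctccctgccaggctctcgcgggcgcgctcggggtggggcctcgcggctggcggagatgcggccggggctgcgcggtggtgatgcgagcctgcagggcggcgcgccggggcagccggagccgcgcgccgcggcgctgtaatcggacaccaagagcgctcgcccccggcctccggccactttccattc
EPHB2: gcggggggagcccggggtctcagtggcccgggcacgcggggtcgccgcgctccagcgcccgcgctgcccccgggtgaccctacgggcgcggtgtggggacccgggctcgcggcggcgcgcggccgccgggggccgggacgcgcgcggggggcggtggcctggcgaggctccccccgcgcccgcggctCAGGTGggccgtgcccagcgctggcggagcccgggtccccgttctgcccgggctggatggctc
EFNB2: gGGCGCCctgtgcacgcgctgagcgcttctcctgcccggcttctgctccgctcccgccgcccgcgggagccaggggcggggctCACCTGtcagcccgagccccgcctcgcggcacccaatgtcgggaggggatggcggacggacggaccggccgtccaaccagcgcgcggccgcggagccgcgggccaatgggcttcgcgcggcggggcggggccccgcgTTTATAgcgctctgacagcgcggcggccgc
EPHB3: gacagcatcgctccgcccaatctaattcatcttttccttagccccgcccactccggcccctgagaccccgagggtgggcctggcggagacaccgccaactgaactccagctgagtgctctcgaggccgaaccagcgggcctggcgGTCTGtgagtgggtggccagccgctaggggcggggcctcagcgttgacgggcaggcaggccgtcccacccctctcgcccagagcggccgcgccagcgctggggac
The windows are rich in G and C, at 70% in the SEMA7A and EPHB3 windows and 84.8% in that of EPHB2. SEMA7A carries the SMAD-binding element at 2 places, 200 and 26 bases before the start, SEMA3C at 1 place 239 bases before it and EPHB3 at 1 place 105 bases before it. EPHB2 holds the E-box 63 bases before the start. RefSeq lists a further start for 3 of these genes, whose windows are not printed. That of SEMA7A holds the SMAD-binding element at 46 bases and GGCGCC at 30 bases, that of SEMA3C holds the SMAD-binding element at 79 bases, and that of EPHB2 lies 1 base away with the same E-box. EFNB2 holds the E-box at 167 bases, GGCGCC at 249 bases and the TATA letters at 30 bases. The table covers 41 of the 48 genes with 59 windows, and lacks EFNB3, NRP1, SEMA3A, SEMA6A, SEMA6B, UNC5B and UNC5D. CAGAC or GTCTG stood in 37.3% of the 59 windows and in 38% of all 35116 windows, and the E-box in 16.9% and 17.5%. GGCGCC stood in 27.1% and 16.4%, and the TATA letters in 1.69% and 10.7%, with a median G and C content of 70% and 58%. TGANTCA was in none of the 59 and in 6.57% of all windows. A match is a run of letters and not a measured binding site, and a missing match says only that the letters are not in these 250 bases.

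Among the ephrin ligands of the first set, EFNB2 rose and EFNA3 and EFNA5 fell. EFNB2, the transmembrane ligand best known from vessel and epithelial boundaries, read 29.0, 28.6 and 33.1 FPKM in the controls and 51.7, 52.4 and 54.7 FPKM with TGFbeta1. The 3 treated libraries were close together and far above all controls. Its mean rose 1.75-fold, a log2 change of 0.79 (SE 0.079, adjusted p = 0.0021). EFNA3 read 6.82, 8.84 and 6.75 FPKM in the controls and 2.52, 4.09 and 2.95 FPKM with TGFbeta1, a log2 change of -1.03 (SE 0.18, adjusted p = 0.0128). EFNA5, the gene of the other lipid-anchored ephrin that fell, read 6.61, 6.97 and 5.77 FPKM against 3.30, 2.89 and 3.32 FPKM, a log2 change of -0.83 (SE 0.099, adjusted p = 0.0038). Neither gene's groups overlapped, and the means were 2.35-fold and 2.03-fold lower with TGFbeta1.

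EFNA3 has EFNA4 and EFNA1 as neighbours of the same family on chromosome 1 (hg19): EFNA4 spans 155036207 to 155042029, EFNA3 155051348 to 155060014 and EFNA1 155099936 to 155107333, all on the plus strand. The 3 did not share a direction. EFNA4 read 5.49, 8.32 and 9.26 FPKM in the controls and 10.4, 11.02 and 11.2 FPKM with TGFbeta1, with no overlap but no call (log2 change 0.48, adjusted p = 0.127). EFNA1, the usual ligand of EPHA2, overlapped between the groups (7.10 to 12.3 FPKM against 8.41 to 10.1 FPKM). EFNB1 read 5.57, 5.56 and 5.91 FPKM in the controls and 5.35, 4.79 and 4.67 FPKM with TGFbeta1; the groups did not overlap, and its log2 change of -0.17 was not called (adjusted p = 0.198). Because of EFNB2, the summed level of the ephrin-B genes went from 34.3 to 39.1 FPKM in the controls to 57.5 to 59.7 FPKM with TGFbeta1, while that of the ephrin-A genes was 29.2 to 31.3 FPKM and 26.2 to 28.3 FPKM.

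Among the Eph receptors, EPHB2 rose while EPHB3 and EPHA1 fell. EPHB2 read 0.789, 1.03 and 1.25 FPKM in the controls and 5.92, 5.88 and 5.73 FPKM with TGFbeta1. All 3 treated libraries stood close together and far above the controls, a 5.71-fold difference of the means and a log2 change of 1.76 (SE 0.11, adjusted p = 0.000448). EPHB3, its close relative in sequence and ligand choice, read 12.1, 11.7 and 11.6 FPKM in the controls and 6.10, 6.35 and 5.46 FPKM with TGFbeta1. Its mean was 1.98-fold lower, a log2 change of -0.88 (SE 0.080, adjusted p = 0.00151). EPHB4, the main receptor of EFNB2, read 35.0, 33.7 and 34.5 FPKM in the controls and 35.4, 35.3 and 31.1 FPKM with TGFbeta1. Its groups overlapped and its log2 change of -0.02 (SE 0.075, adjusted p = 0.880) became slightly positive under each of the 3 other scalings tried.

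The makeup of the EphB receptors therefore shifted at a nearly equal sum. The sum was 46.6 to 48.3 FPKM in the controls and 42.4 to 47.6 FPKM with TGFbeta1. The share of EPHB2 in it went from 1.63 to 2.62% in the controls to 12.4 to 13.5% with TGFbeta1, and that of EPHB3 from 24.3 to 25.1% to 12.9 to 13.3%. EPHB4 made up 72.1 to 72.4% and 73.4 to 74.6%. EPHB2 was thus a minor receptor transcript beside EPHB3 in the controls and about level with it after TGFbeta1.

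EPHA1 read 5.94, 6.46 and 5.94 FPKM in the controls and 4.04, 3.88 and 3.93 FPKM with TGFbeta1. The groups lay apart, and the mean was 1.55-fold lower (log2 change -0.52, SE 0.075, adjusted p = 0.0071). EPHA2 had 58.0, 44.1 and 73.5 FPKM in the controls and 43.6, 32.7 and 46.5 FPKM with TGFbeta1. Its libraries varied widely and overlapped, and its log2 change of -0.49 (SE 0.22) was not called (adjusted p = 0.182), whereas a fit with the replicate number as a block called it at an adjusted p of 0.0498. RefSeq places an antisense gene, EPHA2-AS1, over the start of EPHA2, and since strandedness is not given, reads of the pair cannot be told apart.

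Semaphorins made up 5 of the 8 genes that rose in the first set, and no tested semaphorin gene was called lower. SEMA7A, the lipid-anchored semaphorin that binds integrins and PLXNC1, had the largest change of all the guidance genes tested. It read 1.12, 1.31 and 1.71 FPKM in the controls and 11.1, 23.1 and 12.2 FPKM with TGFbeta1. Every treated library was far above the highest control, and TGFbeta1 replicate 2 stood apart above the other treated libraries. The means differed 11.2-fold (1.38 ± 0.302 and 15.5 ± 6.60 FPKM, SD, n = 3), a log2 change of 2.72 (SE 0.28, limma adjusted p = 0.00246).

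SEMA3C, a secreted class 3 semaphorin, read 20.2, 20.5 and 16.7 FPKM in the controls and 51.1, 48.3 and 50.5 FPKM with TGFbeta1. The groups were well apart with little spread in either, a 2.61-fold rise (log2 change 1.35, SE 0.095, adjusted p = 0.000678). SEMA3F, also secreted and a ligand of NRP2, read 20.1, 21.95 and 21.1 FPKM and then 25.5, 26.7 and 24.5 FPKM. That rise of 1.21-fold (log2 change 0.27, SE 0.070, adjusted p = 0.0472) was the smallest called, and it was lost when any 1 of the 6 libraries was left out (adjusted p 0.0756 to 0.135). SEMA3A and SEMA3B were not called, with log2 changes of -0.09 and -0.25. SEMA3C went from 36.8 to 42.3% of the summed class 3 level in the controls to 59.0 to 62.9% with TGFbeta1, while the sum went from 45.3 to 49.0 FPKM to 80.4 to 83.1 FPKM.

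Of the class 4 semaphorins, which span the membrane, SEMA4C and SEMA4F rose from low levels. SEMA4C, a ligand of PLXNB2, read 2.13, 2.10 and 1.97 FPKM in the controls and 6.39, 4.61 and 3.96 FPKM with TGFbeta1 (2.41-fold, log2 change 0.94, SE 0.16, adjusted p = 0.0126). SEMA4F read 1.15, 1.78 and 1.76 FPKM and then 3.58, 3.89 and 4.74 FPKM (2.60-fold, log2 change 0.99, SE 0.15, adjusted p = 0.0085). Both genes had every treated library above every control. SEMA4B, the class 4 gene with the highest level, overlapped between groups (13.5, 13.9 and 14.6 FPKM against 10.6, 12.6 and 21.4 FPKM), with TGFbeta1 replicate 3 far above the other treated libraries. SEMA4D and SEMA4G were not called either, at log2 changes of -0.12 and 0.11.

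Of the semaphorin receptors in the first set, NRP1 rose and no tested plexin was called. NRP1, which pairs with plexins for SEMA3A and also binds VEGFA, read 7.22, 8.59 and 8.13 FPKM in the controls and 13.6, 11.5 and 14.1 FPKM with TGFbeta1. The groups lay apart, with a 1.64-fold difference (log2 change 0.65, SE 0.11, adjusted p = 0.0127; 0.0611 with the replicate number as a block). NRP2, its relative with a preference for SEMA3F, read 14.1, 14.1 and 14.0 FPKM in the controls and 12.6, 11.1 and 11.4 FPKM with TGFbeta1. All treated libraries were lower, yet the log2 change of -0.25 was not called (adjusted p = 0.0683). NRP1 made up 33.9 to 37.9% of the 2 neuropilins in the controls and 50.7 to 55.3% with TGFbeta1, so that the more abundant one in these libraries changed from NRP2 to NRP1.

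PLXNA1, a plexin that pairs with neuropilins, read 29.9, 29.6 and 20.6 FPKM in the controls and 37.2, 38.9 and 36.7 FPKM with TGFbeta1. The treated libraries were all higher, but control replicate 3 stood well below the other controls and the log2 change of 0.50 was not called (adjusted p = 0.0755). Without that library the log2 change was smaller, at 0.33, and it was called (adjusted p = 0.0242). PLXNB2 read 44.5, 44.0 and 43.8 FPKM in the controls and 40.8, 36.2 and 38.8 FPKM with TGFbeta1. These groups did not overlap either, and the log2 change of -0.19 was not called (adjusted p = 0.107). PLXNA2, PLXNA3, PLXNB1 and PLXNB3 had log2 changes from -0.01 to 0.26, none called.

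UNC5B, a netrin receptor that can trigger cell death when no ligand is bound, read 10.1, 8.88 and 5.04 FPKM in the controls and 1.34, 3.02 and 1.48 FPKM with TGFbeta1. Controls varied widely among themselves, and even the lowest was above every treated library. The mean was 4.11-fold lower (log2 change -1.61, SE 0.31, adjusted p = 0.0198), the largest fall of the 5. The call was lost without control replicate 1, control replicate 2, TGFbeta1 replicate 1 or TGFbeta1 replicate 3 (adjusted p up to 0.0669). RefSeq lists an antisense gene, UNC5B-AS1, inside UNC5B, so the strand caution given for EPHA2 holds here. ROBO1, a Slit receptor, read 2.26, 1.11 and 1.91 FPKM and then 2.37, 2.82 and 2.79 FPKM, without overlap and without a call (log2 change 0.43, adjusted p = 0.158). UNC50, which shares only spelling with UNC5, overlapped between the groups (19.8 to 24.7 FPKM against 23.1 to 27.0 FPKM).

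Of the 16 genes under 1 FPKM, 7 were called when no filter on low levels was applied, which brought the count to 20 of 48, beside 19.1% of all genes in that fit. SLIT3, the 1 Slit ligand listed, read 0.109, 0.0899 and 0.0150 FPKM in the controls and 0.874, 0.871 and 0.771 FPKM with TGFbeta1, and its log2 change of 0.78 had an adjusted p of 0.000842. The other 4 that were higher in this fit were SEMA6C (log2 change 0.53), EFNB3 (0.37), ROBO4 (0.34) and EFNA2 (0.25), and the 2 lower were EPHB6 (-0.39) and SEMA5A (-0.20). ROBO4, known from endothelium, read 0.0888 to 0.163 FPKM and 0.420 to 0.447 FPKM. EFNA2 was listed at 0 in all 3 controls and at 0.144 to 0.254 FPKM with TGFbeta1. On this scale a pseudocount of 1 FPKM holds the log2 change of such low genes close to 0, and at these levels few fragments may stand behind a value.

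**Figure D3:**
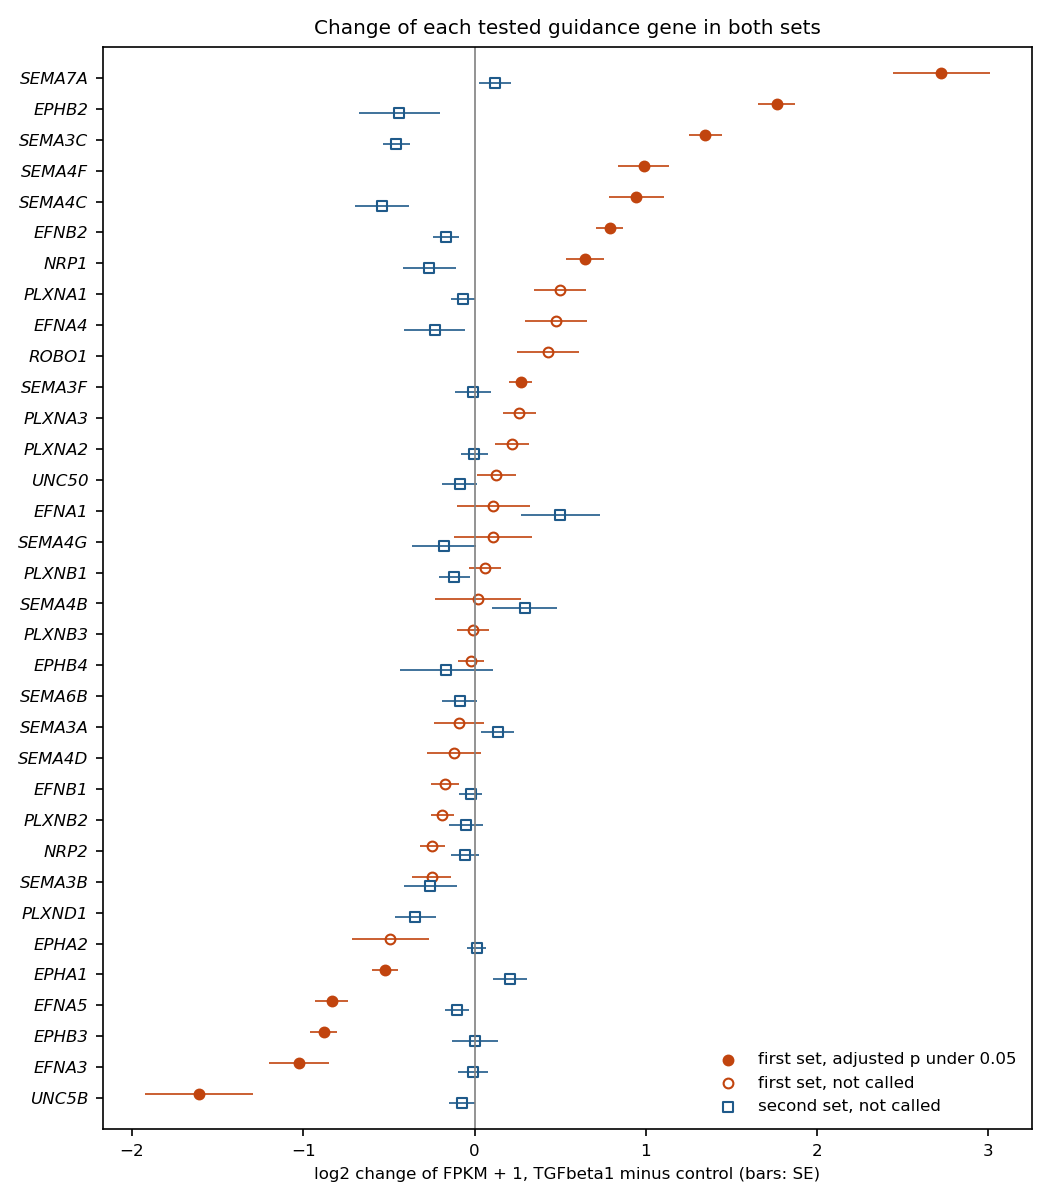
Log2 change of log2(FPKM + 1), libraries labelled TGFbeta1 minus controls, with its standard error, for each tested guidance gene in the first and the second set. Points of the first set reach from -1.61 (UNC5B) to 2.72 (SEMA7A), and those of the second from -0.54 (SEMA4C) to 0.50 (EFNA1).

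In the second set none of the 29 tested guidance genes was called between controls and libraries labelled TGFbeta1 (limma), beside 0.321% of all 10579 genes tested (0.17% higher and 0.151% lower). Without a filter on low levels it was none of 35, beside 0.243% of all genes. At an unadjusted p under 0.05 there were 3 of the 29, beside 11.2% of all genes tested: SEMA3C, SEMA4C and PLXND1, all lower. SEMA3C read 27.5, 27.6 and 25.3 FPKM in the controls and 21.0, 19.1 and 17.9 FPKM in the labelled libraries, opposite to the direction in the first set. The groups lay apart, at a log2 change of -0.46 (SE 0.078, adjusted p = 0.125 by limma). SEMA4C read 3.69, 4.29 and 5.30 FPKM and then 2.26, 3.33 and 2.61 FPKM (log2 change -0.54, adjusted p = 0.310 by limma), and PLXND1, a receptor of SEMA3E, read 3.0, 2.46 and 2.57 FPKM and then 1.56, 1.95 and 2.18 FPKM (log2 change -0.35, adjusted p = 0.380 by limma). Of the 29 genes 22 had a negative log2 change, with a median of -0.072, while all genes tested had a median of -0.00031. In 7 of the 29 the groups did not overlap, beside 19.3% of all genes tested.

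None of the 7 genes that rose in the first set and were listed in the second was called there. SEMA7A read 1.19, 1.14 and 1.10 FPKM in the controls and 1.42, 1.40 and 1.18 FPKM in the labelled libraries, with overlap. EPHB2 read 2.53, 2.20 and 2.32 FPKM and then 1.82, 2.11 and 0.715 FPKM, with every labelled library below every control. EFNB2 read 33.6, 36.2 and 30.4 FPKM and then 29.1, 30.2 and 29.6 FPKM, the labelled ones again lower. The log2 changes were 0.12, -0.44 and -0.17, and none was called. NRP1 overlapped, with 10.3, 12.1 and 10.9 FPKM against 11.04, 9.43 and 7.15 FPKM.

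The genes that fell in the first set differed little in the second. UNC5B read 8.36, 9.01 and 9.35 FPKM in the controls and 7.94, 8.76 and 8.56 FPKM in the labelled libraries. EPHB3 read 7.11, 5.45 and 7.60 FPKM and then 6.12, 6.53 and 7.42 FPKM, and EFNA3 read 9.002, 8.20 and 9.69 FPKM and then 8.65, 8.55 and 9.49 FPKM. EFNA5 read 7.79, 7.96 and 7.31 FPKM and then 7.44, 6.76 and 7.08 FPKM. All 4 overlapped between the groups. EPHA1 did not, with 3.21, 3.47 and 3.64 FPKM against 3.83, 3.91 and 4.66 FPKM, a log2 change of 0.21 opposite to that of the first set. The most abundant gene, EPHA2, read 41.2, 41.9 and 39.3 FPKM and 39.6, 42.3 and 41.5 FPKM.

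Whether a change differed between the sets was tested directly, as the log2 change of the second set minus that of the first over all 12 libraries. Of 31 guidance genes tested, 11 were called (35.5%, 5 higher and 6 lower), beside 13.6% of all 10548 genes tested (7.56% higher and 6.06% lower). The 6 with a lower change in the second set were SEMA7A (difference -2.60), EPHB2 (-2.20), SEMA3C (-1.80), SEMA4C (-1.48), EFNB2 (-0.96) and NRP1 (-0.91), each a gene that had risen in the first set. The 5 with a higher change were UNC5B (1.54), EFNA3 (1.02), EPHB3 (0.88), EFNA5 (0.73) and EPHA1 (0.73), each a gene that had fallen. Because the difference contains the change of the first set, its calls and signs are not independent of the first-set calls. The limma adjusted p ranged from 1.22e-05 for SEMA3C to 0.0141 for NRP1. The call of NRP1 was lost with the replicate number as a block (adjusted p = 0.0533) and over transcripts in both tables (adjusted p = 0.104). SEMA3F, the remaining gene called in the first set and listed in both, had a difference of -0.28 that was not called (adjusted p = 0.217), and SEMA4F is not in the second table. The set, with all that differs between the 2 tables, and the response to the labelled agent cannot be told apart here.

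Per transcript, 8 of 44 tested transcripts of guidance genes were called in the first set, beside 5.54% of all 18113 tested (2.71% higher and 2.83% lower). Higher were the single listed transcripts of SEMA3C and EFNB2, SEMA7A-001 and EPHB2-003. Lower were the single transcripts of EPHB3 and EFNA3, EFNA5-001 and SEMA4B-001. The 8 calls became 0 with the replicate number as a block and 2 to 5 when 1 library was left out, with no lower call without control replicate 1, control replicate 2 or TGFbeta1 replicate 1. SEMA7A-001 read 1.12, 1.31 and 1.71 FPKM in the controls and 10.6, 11.4 and 9.69 FPKM with TGFbeta1 (log2 change 2.28, limma adjusted p = 0.00203). A further transcript, SEMA7A-201 of this table, was listed at 0 in all controls and read 0.00313, 10.3 and 1.12 FPKM, so the high gene sum of TGFbeta1 replicate 2 rests on that 1 transcript. EPHB2-003 read 0, 0.592 and 1.25 FPKM and then 5.38, 5.15 and 4.97 FPKM, and it carried most of the gene's level in every treated library.

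SEMA4B was not called as a gene, and 1 of its transcripts was called lower. SEMA4B-001 read 5.89, 7.82 and 5.11 FPKM in the controls and 2.56, 3.01 and 2.18 FPKM with TGFbeta1 (log2 change -1.01, limma adjusted p = 0.0418). SEMA4B-002 read 6.60, 5.49 and 8.82 FPKM and then 6.25, 8.18 and 17.9 FPKM, with overlap and no call. The high SEMA4B level of TGFbeta1 replicate 3 thus came from SEMA4B-002. The transcripts of SEMA3F varied widely between libraries of the second set. SEMA3F-206 read 13.7, 0 and 0 FPKM in the controls and 14.9, 3.11 and 13.4 FPKM in the labelled libraries, and SEMA3F-202 read 0, 2.74 and 15.2 FPKM and then 0, 14.7 and 0 FPKM. SEMA3F-201 read 2.87, 12.8 and 4.34 FPKM and then 2.44, 2.06 and 3.998 FPKM, while the gene sum stayed between 17.9 and 22.3 FPKM in every library.

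**Figure D4:**
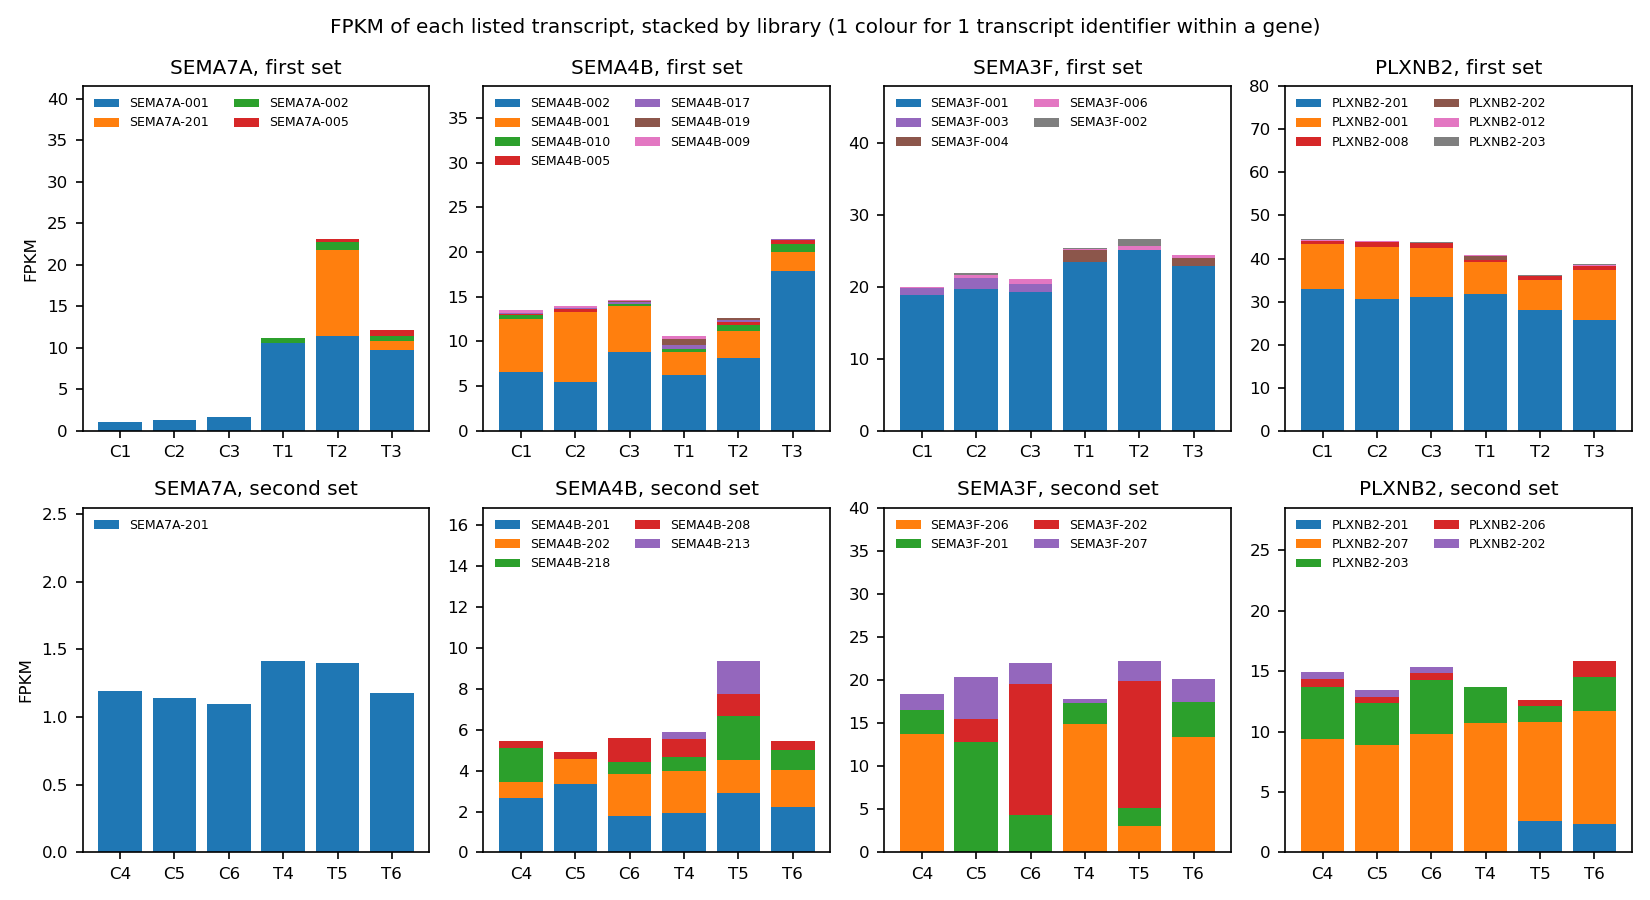
Stacked FPKM of the listed transcripts in each library (C1 to C6 controls, T1 to T6 TGFbeta1) for genes whose transcripts differ between libraries, with the first set and the second set in separate panels and 1 colour per transcript. SEMA7A in T2 holds an added transcript of 10.3 FPKM, and in the second set SEMA3F keeps its sum near 20 FPKM while its transcripts trade places.

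None of 49 tested transcripts of guidance genes was called in the second set by limma, beside 0.221% of all 20392 tested (0.118% higher and 0.103% lower). At an unadjusted p under 0.05 there were 2 of the 49, beside 6.84% of all transcripts tested. The authors' deposited table gives 28 transcripts with a q-value under 0.05 in that set, 1 of them among the 73 of guidance genes. In the authors' deposited table this is PLXNB2-202, with a log2 fold change of -0.62 and a q-value of 0.000883. It read 0.544, 0.544 and 0.529 FPKM in the controls and is listed at 0 in all libraries labelled TGFbeta1. At these levels PLXNB2-202 was under the filter of 1 FPKM and was not among the 49. With no filter limma tested all 73 and called none. The summed PLXNB2 level overlapped (13.4 to 15.4 FPKM against 12.6 to 15.9 FPKM). The authors' deposited table has 4 guidance gene transcripts of the 73 with a p-value under 0.05, among them SEMA3C-201 with a q-value of 0.355. The share over all transcripts of that set was not counted for the authors' p-values.

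Genes that act with these families were read from 5 lists, whose counts of calls in the first set stand beside 20.9% of all genes tested (9% higher and 11.9% lower). Of netrin, RGM and FLRT genes, 6 were tested in the first set; FLRT2, an UNC5 ligand, was higher (log2 change 1.07, adjusted p = 0.0392) and its partner ADGRL1 lower (log2 change -0.73, adjusted p = 0.0023). NTN4, a netrin of basement membranes, had a log2 change of -0.81 that was not called (adjusted p = 0.0592). Of 10 tested partners of neuropilins and plexins, 3 were higher and none lower: the integrins ITGB1 (log2 change 0.95, from 107.5 to 208.0 FPKM on average) and ITGA1 (0.41), which bind SEMA7A as a pair, and the adhesion molecule L1CAM (0.54). VEGFA and MET were not called.

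Of 12 tested plexin effectors, 4 were higher and 1 lower. MICAL2 and MICAL1, enzymes that oxidise actin, had log2 changes of 1.19 and 0.94, and RASA1 had 0.53. The 1 lower gene was RHOD, named after its values were seen. Of 17 tested Eph effectors, 1 was higher and 3 lower, a share near that over all genes, among them the adaptor NCK1 (-0.45), the phosphatase PTPN13 (-0.38) and, as the higher one, the exchange factor NGEF (0.48). Of 12 tested effectors of Robo and UNC5 receptors, 1 was higher and 4 lower, with ABLIM1 at -1.06, SRGAP3 at -1.19 and MAGED1, which binds UNC5 receptors, at 0.76. The medians of the 5 lists were -0.33, 0.31, 0.29, -0.03 and -0.03 in that order, against -0.055 for all genes tested. In the second set limma called no gene of any of the 5 lists, beside 0.321% of all genes tested. Their tested genes numbered 5, 10, 10, 16 and 11, of which 0, 3, 1, 4 and 0 had an unadjusted p under 0.05. Over all genes tested in that set, 11.2% had such a p.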

How the data were processed

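RNA of 12 libraries of MCF-12A cells, 6 controls and 6 with TGFbeta1, had been extracted with Trizol, per the labels' protocols. The submitters' processing notes name HISAT2 2.0.4, StringTie 1.2.3, cutadapt, FastQC and the build hg19, and which settings, strand mode or annotation were used is not given in the sources used here. Values deposited by the authors are FPKM per protein-coding transcript in 2 tables. The headers of the second name FPKM for its group means, and the unit of the first is inferred from its values. The second table, as deposited by the authors, also has log2 group means and log2 fold changes, linear fold changes (a ratio), and p-values and q-values, which are quoted only where the authors' table is named. Low transcripts had been removed at different levels, since the lowest listed mean was 0.025 FPKM in the first table and 0.250 FPKM in the second.

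Transcripts were summed per gene symbol. Symbols of 163 genes of the first set were renamed through shared transcript identifiers, none of them a guidance gene. Genes with a mean of at least 1 FPKM in the fit were tested within each set on log2(FPKM + 1) with limma 3.58.1 (R 4.3.3; empirical Bayes with a mean-variance trend, two-sided, Benjamini-Hochberg over the whole table, threshold 0.05), and the interaction of set and agent over both. Log2 changes on this scale understate those of low genes. FPKM is relative to each library's total. Guidance genes were described per library where a fit called them or where they were among the 5 highest control means of a set. Some others were given per library too. Of each of the 5 lists of related genes, the 3 with the smallest p in the first set were named. VEGFA, MET and RHOD were named besides these. The symbol rule uses no values, but the gene families and the lists were proposed with earlier results of these data known, and 1 gene of the TGFbeta response check is not reported here. As alternatives, the pseudocount was set to 0.1, the filter dropped or raised to 5 FPKM, the libraries scaled in 3 other ways (by median of ratios, to an equal sum, by quantiles), the variance trend dropped, the replicate number added as a block, each library left out, and sums taken over transcripts present in both tables. The procedure was also run on simulated data with independent noise and with large changes planted only in genes above the lowest levels. That run does not cover low genes, small changes or technical structure shared between libraries. Tables and plots used Python 3.11.15 with pandas 2.3.3, numpy 2.4.6 and matplotlib 3.10.9. Promoter windows came from RefSeq (GRCh38.p14), while gene spans are in hg19 as the files give them.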

Additional observations from a re-analysis of the deposited data

Results flagged for a closer look

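For 11 guidance genes the change differed between the 2 sets by the interaction test, given as the log2 change of the second set minus that of the first. Those that had risen with TGFbeta1 in the first set had negative differences: SEMA7A -2.60, EPHB2 -2.20, SEMA3C -1.80, SEMA4C -1.48, EFNB2 -0.96 and NRP1 -0.91. Those that had fallen had positive ones: UNC5B 1.54, EFNA3 1.02, EPHB3 0.88, EFNA5 0.73 and EPHA1 0.73. The difference contains the change of the first set, so these signs are not independent of the first-set calls. SEMA3C, SEMA4C, EPHB2, EFNB2 and NRP1 went from positive to negative between the sets and EPHA1 from negative to positive, while SEMA7A, UNC5B and EFNA5 kept their sign with a smaller change. EPHB3 went from -0.88 to 0.0017 and EFNA3 from -1.03 to -0.0085. No change in the second set was called. In the second set limma called none of the 7 genes of the TGFbeta response check (4 at an unadjusted p under 0.05). Their sum there was lower in the libraries labelled TGFbeta1 than in the controls. What set the sets apart was not tested.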

How the results depend on the processing

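The count of 13 guidance genes called in the first set (8 higher, 5 lower) was 13, with the same split, under all 3 other scalings and a pseudocount of 0.1, and 11 to 13 when 1 library was left out. It was 20 with no filter and 8 at a minimum of 5 FPKM, which test other numbers of genes, and 12 (6 higher, 6 lower) with the replicate number as a block. Over all genes, 2186 calls became 1211 with the block and 1354 to 2030 without 1 library. Their split of 941 higher and 1245 lower became 1074 and 983 with the median of ratios, 1164 and 855 with an equal sum and 1036 and 972 with quantile normalisation. The call of SEMA3F was also lost without the variance trend (adjusted p = 0.0569) and with the block (adjusted p = 0.0988).

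No alternative called a guidance gene or its transcripts in the second set, and its 34 calls over all genes became 17 with an equal sum, 20 without the variance trend, 0 with the block and 0 to 23 without 1 library. The 11 guidance genes called for the interaction were 7 at the minimum of 5 FPKM and 11 to 13 without 1 library. With the block NRP1 lost its interaction call (adjusted p = 0.0533) and EPHA2 gained one (0.0427). With transcripts in both tables NRP1 lost it too (0.104) and PLXNB2 gained one (0.0430). PLXNA1 gained one without control replicate 1, 2 or 3 (0.0437, 0.0498 and 0.0282). Of transcripts in the first set, 1003 calls became 655 with no filter, 45 with the block and 406 to 784 without 1 library, and the 8 of guidance genes became 5 at the minimum of 5 FPKM, 0 with the block and 2 to 5 without 1 library. The second set's 45 transcript calls became 27 with a pseudocount of 0.1, 27 at the minimum of 5 FPKM and 1 with the block. The cause of these shifts was not tested.

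No called change of a guidance gene turned its sign in the alternatives that fitted it. SEMA3F, called higher in the first set, had no fit there over transcripts in both tables. Its shared transcript, SEMA3F-003, fell under the filter of 1 FPKM and was not tested. That transcript read 0.941, 1.55 and 1.17 FPKM in the controls and 0, 0 and 0.0029 FPKM with TGFbeta1, opposite to the gene's rise. The following changes, none of them called, did turn their sign. For EPHB4 in the first set the log2 change became 0.038 (median of ratios), 0.067 (equal sum) and 0.062 (quantile), and without 1 library it lay between -0.050 and 0.040. Over the second set an equal sum gave -0.015 for EPHA2 and -0.022 for EPHB3, quantile normalisation gave -0.00155 for EPHA2, and PLXNB2 came to 0.22 over transcripts in both tables. Without 1 library the ranges there were -0.072 to 0.021 for EFNB1, -0.014 to 0.039 for EPHA2, -0.12 to 0.085 for EPHB3, -0.42 to 0.0082 for EPHB4, -0.13 to 0.019 for PLXNB2, -0.083 to 0.068 for SEMA3F, -0.14 to 0.019 for UNC50 and -0.065 to 0.044 for EFNA3. The interaction of EPHB4 lay between -0.40 and 0.028 without 1 library, and that of SEMA3F was 0.64 over transcripts in both tables.

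Equal replicate numbers were not taken as pairs, since libraries with the same number deviated together with a correlation of only 0.0075 to 0.0175 in the first set and 0.0166 to 0.0457 in the second, under the threshold of 0.1; in the second set every library correlated best with its own number, a hint from the data and not from the design, and in the first set control and TGFbeta1 replicate 3 did not. With the block, 12 guidance genes were called in the first set, 0 in the second and 11 for the interaction. Without counts, neither depth nor counting error of a low FPKM can be given. The unit of the first set is inferred, the sets were filtered and scaled apart, and 3 libraries a group limit what can be called.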

Other observations

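Levels of some guidance genes in the controls were far apart between the 2 tables, which were normalised separately, so these values stand side by side without a test. EFNB1 read 5.56 to 5.91 FPKM in the controls of the first set and 25.5 to 26.3 FPKM in those of the second, which made it 15.1 to 16.2% of the summed ephrin-B level in the former and 41.0 to 45.4% in the latter. EPHB4 read 33.7 to 35.0 FPKM and 11.4 to 18.9 FPKM, and PLXNB2 43.8 to 44.5 FPKM and 13.4 to 15.4 FPKM. For PLXNB2 the gap lay in the transcript ENST00000359337, at 30.7 to 33.0 FPKM in the controls of the first set and 0.00703 to 0.0163 FPKM in those of the second, while ENST00000449103 read 10.3 to 12.03 FPKM and 8.84 to 9.81 FPKM. EPHA2, NRP2 and SEMA3F differed less: NRP2 read 14.0 to 14.1 FPKM and 14.9 to 16.8 FPKM, and SEMA3F 20.1 to 21.95 FPKM and 18.4 to 21.98 FPKM.

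EPHB6, an Eph receptor without kinase activity, was under the filter in both sets and had lower libraries labelled TGFbeta1 in each. It read 0.428, 0.182 and 0.453 FPKM in the controls of the first set and 0, 0.0145 and 0.0821 FPKM with TGFbeta1. The second set gave 0.811, 0.144 and 1.57 FPKM in the controls and 0.143, 0.0407 and 0 FPKM in the labelled libraries. With no filter the limma adjusted p was 0.0384 (first set) and 0.452 (second set).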
